A study of Mus musculus with 20 samples.

Results

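The mRNAs described here come from 5 mouse genes, 3110040N11Rik, Hdlbp, Rab11b, Cux1 and Tmem250-ps, whose 22 cytosines were followed in 5 tissues with and without the RNA methyltransferase Nsun6. The cytosines are all those that the deposited site table lists under these gene symbols, 22 of 32378 listed cytosines and 5 of 10240 genes with a listed cytosine. The genes themselves were chosen by measured values, namely a lower 5-methylcytosine (m5C) level in Nsun6 knockout (KO) than in wild-type (WT) libraries at one cytosine of each, together with coverage in several tissues. Values of WT heart, and of WT kidney for Cux1, entered this choice. The KO against WT levels below are therefore a description of the chosen genes and carry no test of their own.

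Bisulfite sequencing of captured mRNA was carried out on heart, kidney, small intestine, liver and spleen of Nsun6 KO and WT mice, with 2 libraries for each tissue and genotype. The KO mice were made by CRISPR/Cas9 in fertilized C57BL/6J eggs and lack exons 3 and 4 of Nsun6 in the whole body, so that no cell type is singled out. WT mice carry the intact gene. All tissues came from 8-week-old female mice, and the labels do not say whether the replicates of a group are separate animals, so the p-values measure only the spread between these libraries.

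Bisulfite turns unmethylated cytosine into uracil, which is read as T, while m5C is still read as C. The m5C level of a cytosine is thus the number of its reads that still show C, called unconverted reads here, divided by its coverage. Nsun6 is known to methylate cytosines that open the motif CTCCA in mRNA, preferentially where the cytosine is not base-paired, and Nsun2, its paralog, methylates cytosines followed by a G-rich stretch. The 5 genes have unrelated roles. Hdlbp encodes vigilin, an RNA-binding protein built of KH domains; Rab11b encodes a small GTPase of the recycling endosome; Cux1 encodes a homeobox transcription factor and, through a shorter transcript form, the Golgi membrane protein CASP. Tmem250-ps is annotated as a pseudogene of a transmembrane protein, and 3110040N11Rik carries only a RIKEN clone name.

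Each gene had 1 cytosine with CTCCA that met the criteria in at least 1 WT tissue, meaning that both libraries of the group had 20 or more reads, of which 2 or more were unconverted, and that the mean level reached 0.05. These 5 are called the motif cytosines below. Their surroundings are shown because every gene has a KO against WT difference at its motif cytosine, though not always there alone. They are on the mm10 (GRCm38) minus strand, written 5′ to 3′ with 10 bases before and 14 bases after the cytosine. CTCCA is in capitals, its first C being the measured base.
3110040N11Rik, chr7:81783078-81783102: gcctctacaaCTCCAgaggaggtct
Hdlbp, chr1:93407998-93408022: gtggctgcttCTCCAggcctggtca
Rab11b, chr17:33747335-33747359: tgctcccaccCTCCAagtgagctcc
Cux1, chr5:136250576-136250600: gtctgattctCTCCAacaagatggc
Tmem250-ps, chr2:26137712-26137736: aaggcttgaaCTCCAgagcaggggg
Outside the motif, 0 of the 20 flanking positions held the same base in all 5 windows. CTCCA was found at 302 of 32378 listed cytosines (0.934%) and at 38 of the 714 that met the criteria in a WT tissue (5.32%).

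The motif cytosines lie at different places in their transcripts (GENCODE M21, basic set only, to which the transcript counts here refer). That of 3110040N11Rik is in the coding sequence, in exon 4 of 5 and 46 bases before the last coding base. Those of Hdlbp and Rab11b are in the 3′ UTR, 164 and 322 bases after the last coding base. That of Cux1 is the last base of codon 612 of 678, in exon 21 of 23 of a shorter transcript form, and is held by 2 of the gene's 6 annotated transcripts; RefSeq names the proteins of these shorter forms CASP. The other 4 listed Cux1 cytosines lie in exons 7 and 11, which all 6 transcripts share. Tmem250-ps is annotated as a lincRNA, and its 5 listed cytosines are in exon 2 of 2.

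Reads over all listed cytosines summed to between 1230665 and 4640168 per library, with a median coverage of 26 to 82 reads. Of the listed cytosines, 31444 (97.1%) had been passed by the authors in exactly 1 library. The number passed was uneven: 8 libraries, 4 KO and 4 WT, had between 2577 and 4679 passed cytosines, and the other 12 had between 115 and 1410. Nsun6 itself had no listed cytosine, so the deletion could not be checked in these reads. Tissue markers followed the labels: liver markers took 13.4% to 35.2% of reads in liver libraries and at most 0.573% elsewhere, spleen markers at least 1.58% in spleen and at most 0.38% elsewhere, and kidney markers at least 0.254% against at most 0.11%. Heart markers (0.0273% to 0.132% in heart, at most 0.00106% elsewhere) and small intestine markers (at least 0.187%, at most 0.028% elsewhere) rest on 3 listed genes of 8 each, and heart troponins had no listed cytosine.

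In KO libraries the motif cytosines were at or near a level of 0 in every tissue with a value, while in WT they were methylated in heart in all 5 genes. Elsewhere the WT mean levels were lower and in some tissues 0, though Cux1 in kidney (0.141) was close to heart (0.143). Over the 5 cytosines, 2 of 11641 KO reads were unconverted (0.0172%, exact 95% interval 0.00208% to 0.062%), against 675 of 11399 WT reads (5.92%, 5.5% to 6.37%). In kidney, both WT libraries were above both KO libraries at all 5, on the contrast by which the genes were chosen. Over all tissues, this held for 18.8% of 2226 pairs of a tissue and a cytosine that met the criteria in WT. An unconverted read was seen in 2 of 47 KO library values and in 33 of 47 WT library values. These intervals, like the limits given below where no read was unconverted, hold for counting error alone, since reads copied by PCR without molecular identifiers are not independent molecules.

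**Figure D1:**
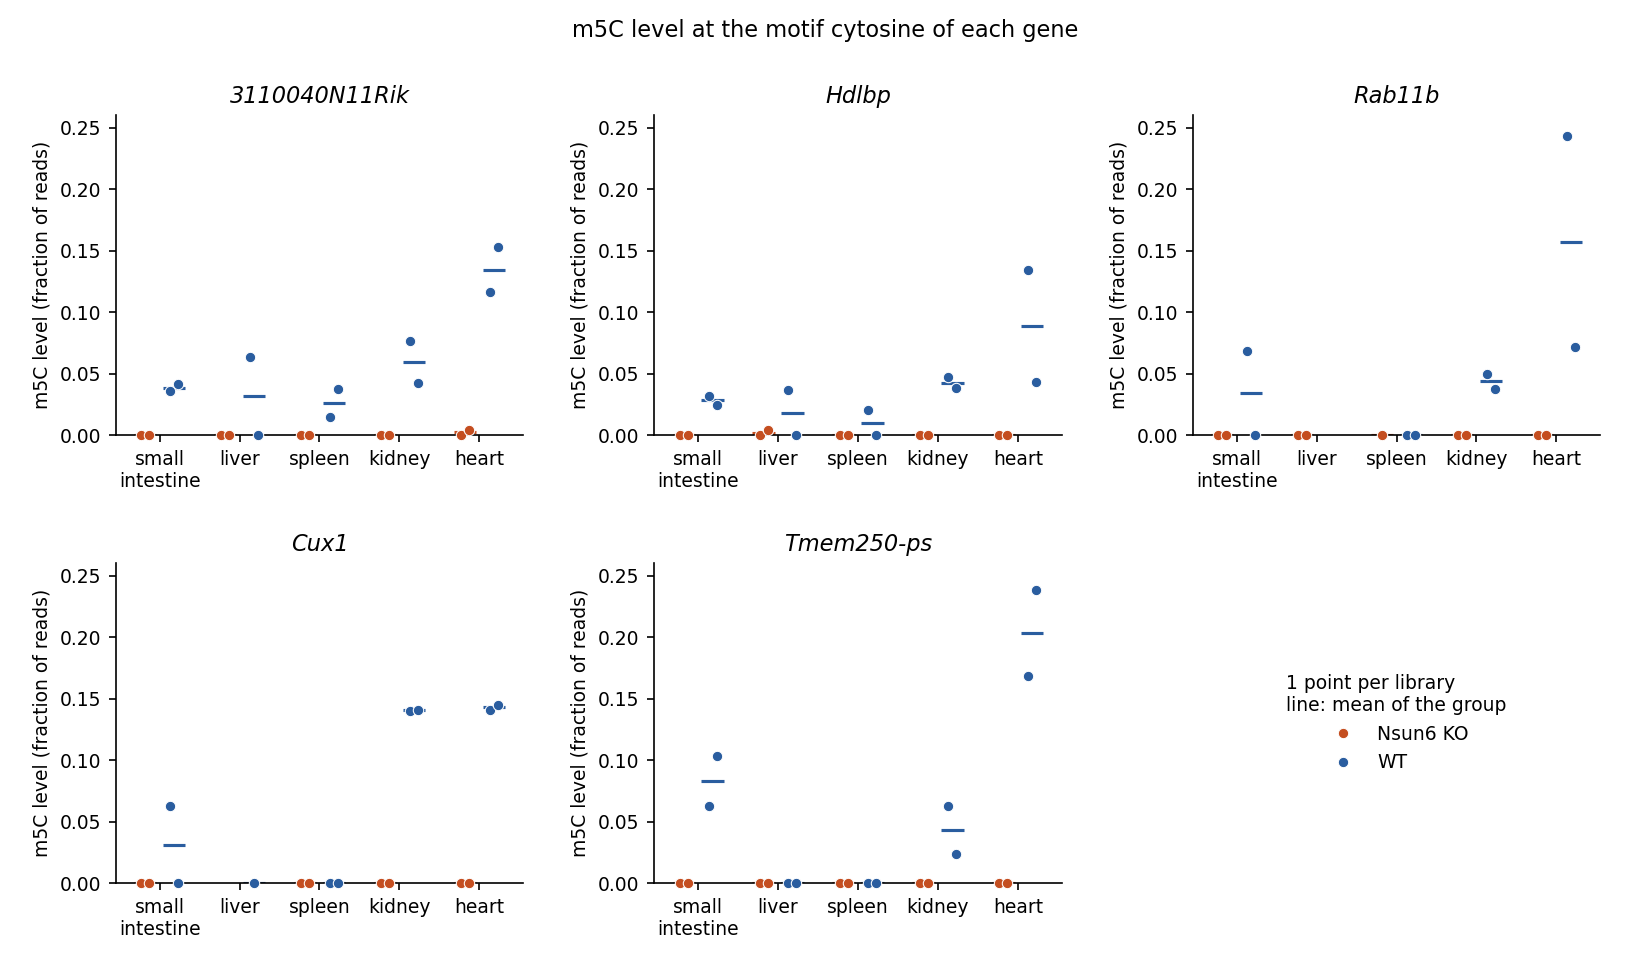
m5C level (fraction of reads, vertical axis) at the CTCCA cytosine of each gene in 5 tissues (horizontal axis), 1 point per library, Nsun6 KO left of WT, with a line at each group mean. KO points lie at 0 except for 1 Hdlbp liver and 1 3110040N11Rik heart library, and WT heart reaches 0.0434 to 0.243.

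3110040N11Rik had the widest spread of methylation over tissues, with unconverted reads in 9 of 10 WT libraries. In heart, 0 of 304 and 1 of 219 reads were unconverted in the KO libraries, against 76 of 655 and 78 of 509 in the WT libraries. Kidney showed 0 of 620 and 0 of 715 in KO, against 19 of 248 and 12 of 283 in WT. Small intestine showed 0 of 1371 and 0 of 254 in KO, against 21 of 587 and 10 of 241 in WT. Both WT libraries were thus above both KO libraries in these 3 tissues and in spleen, where KO had 0 of 306 and 0 of 798 unconverted reads and WT 3 of 202 and 20 of 535. In liver, KO had 0 of 167 and 0 of 141, and the WT libraries disagreed, with 13 of 204 in one and 0 of 358 in the other. Mean levels were 0.00228 ± 0.00323 in KO heart and 0.135 ± 0.0263 in WT heart (SD, n = 2 each). Over all tissues KO had 1 unconverted read of 4895 and WT 252 of 3822.

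Hdlbp, the vigilin gene, had the deepest WT coverage of the 5 and levels that were lower than those of 3110040N11Rik in each WT tissue. In heart, 0 of 233 and 0 of 279 reads were unconverted in KO, which allows a level of up to 0.00586, against 82 of 611 and 39 of 898 in WT. The WT heart libraries differed by about as much as their mean, at 0.134 and 0.0434, but neither reached down to KO. Kidney had 0 of 775 and 0 of 310 in KO, against 9 of 191 and 16 of 419 in WT. Small intestine, the tissue with the deepest coverage of this cytosine, had 0 of 1001 and 0 of 1047 in KO, against 45 of 1409 and 20 of 803 in WT, a level of 0.0284 ± 0.00497 that did not overlap KO. In liver and spleen the groups overlapped. Liver KO had 0 of 308 and 1 of 258, liver WT 10 of 275 and 0 of 285; spleen KO had 0 of 134 and 0 of 13, spleen WT 2 of 99 and 0 of 419.

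Tmem250-ps had the highest heart level of the 5. In heart, none of 259 reads in KO was unconverted, for an upper limit of 0.0116, whereas the WT libraries stood at 0.168 and 0.238, a mean of 0.203 ± 0.0496. Small intestine had 0 of 80 and 0 of 72 in KO, against 4 of 64 and 4 of 39 in WT. Kidney had 0 of 491 and 0 of 77 in KO, against levels of 0.0625 and 0.024 in WT. The groups did not overlap in these 3 tissues. In liver and spleen both genotypes were at 0: 0 of 96 KO reads and 0 of 157 WT reads in liver, and 0 of 114 KO reads and 0 of 74 WT reads in spleen. A count of 0 allows a level of up to 0.0191 in WT liver and up to 0.0405 in WT spleen. In spleen, a mean level like that of 3110040N11Rik (0.0261) thus lay within what this depth allows.

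Cux1 differed from the others in that kidney was as high as heart. In kidney, 0 of 305 reads were unconverted over both KO libraries, against 8 of 57 and 25 of 177 in WT. In heart, KO had 0 of 66 and 0 of 21, and WT had 27 of 191 and 24 of 165. WT levels were 0.141 ± 0.000631 in kidney and 0.143 ± 0.00289 in heart (SD, n = 2 each), and the higher kidney library and the lower heart library were both at 0.141. Small intestine had 1 unconverted read among 16 in the first WT library and 0 of 48 in the second, against 0 of 41 in KO. Spleen had 0 of 94 in KO and 0 of 51 in WT. In liver no KO library had a value, and 1 WT library had 0 of 14.

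Rab11b had the fewest reads. In heart, 0 of 38 and 0 of 54 were unconverted in KO, against 9 of 37 and 2 of 28 in WT. Kidney had 0 of 149 and 0 of 60 in KO, against 2 of 40 and 6 of 161 in WT. Small intestine had no unconverted read in either KO library, against 3 of 44 and 0 of 38 in WT, and the groups overlapped there. Spleen had 0 of 195 in the only KO library with a value and 0 of 148 over both WT libraries; liver had 0 of 38 in KO and no WT value. The Rab11b values are also uncertain because the sequence around its motif cytosine has 2 other copies in the genome, one of them 100% identical on chromosome 19. The sources used here do not say how the authors placed reads that fit several copies. The windows of the other 4 motif cytosines had no other copy.

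Over the 22 pairs of a motif cytosine and a tissue with values in all 4 libraries, both WT libraries lay above both KO libraries in 14, where the same held for 18.8% of 2226 such pairs over all cytosines that met the criteria in WT. In the fit of unconverted and converted reads across all cytosines of a tissue (edgeR's quasi-likelihood test, Benjamini-Hochberg adjusted p under 0.05), 11 pairs of a listed cytosine and a tissue could be tested, of which 3 were lower in KO, all in heart: Hdlbp, 3110040N11Rik and Tmem250-ps. In heart these were 3 of 7 tested, with 2.1% of all 523 tested cytosines called lower. In small intestine 0 of 1 was called lower (2.36% of all), in spleen 0 of 1 (0% of all) and in kidney 0 of 2 (0% of all), while in liver none of the 22 was tested (0.649% of all). Since these genes were selected on that difference, the counts are given for the record only. Over all cytosines, 3 in spleen and 15 in kidney were lower at an unadjusted p under 0.05, and limma called 0 lower in both tissues and in heart.

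**Figure D2:**
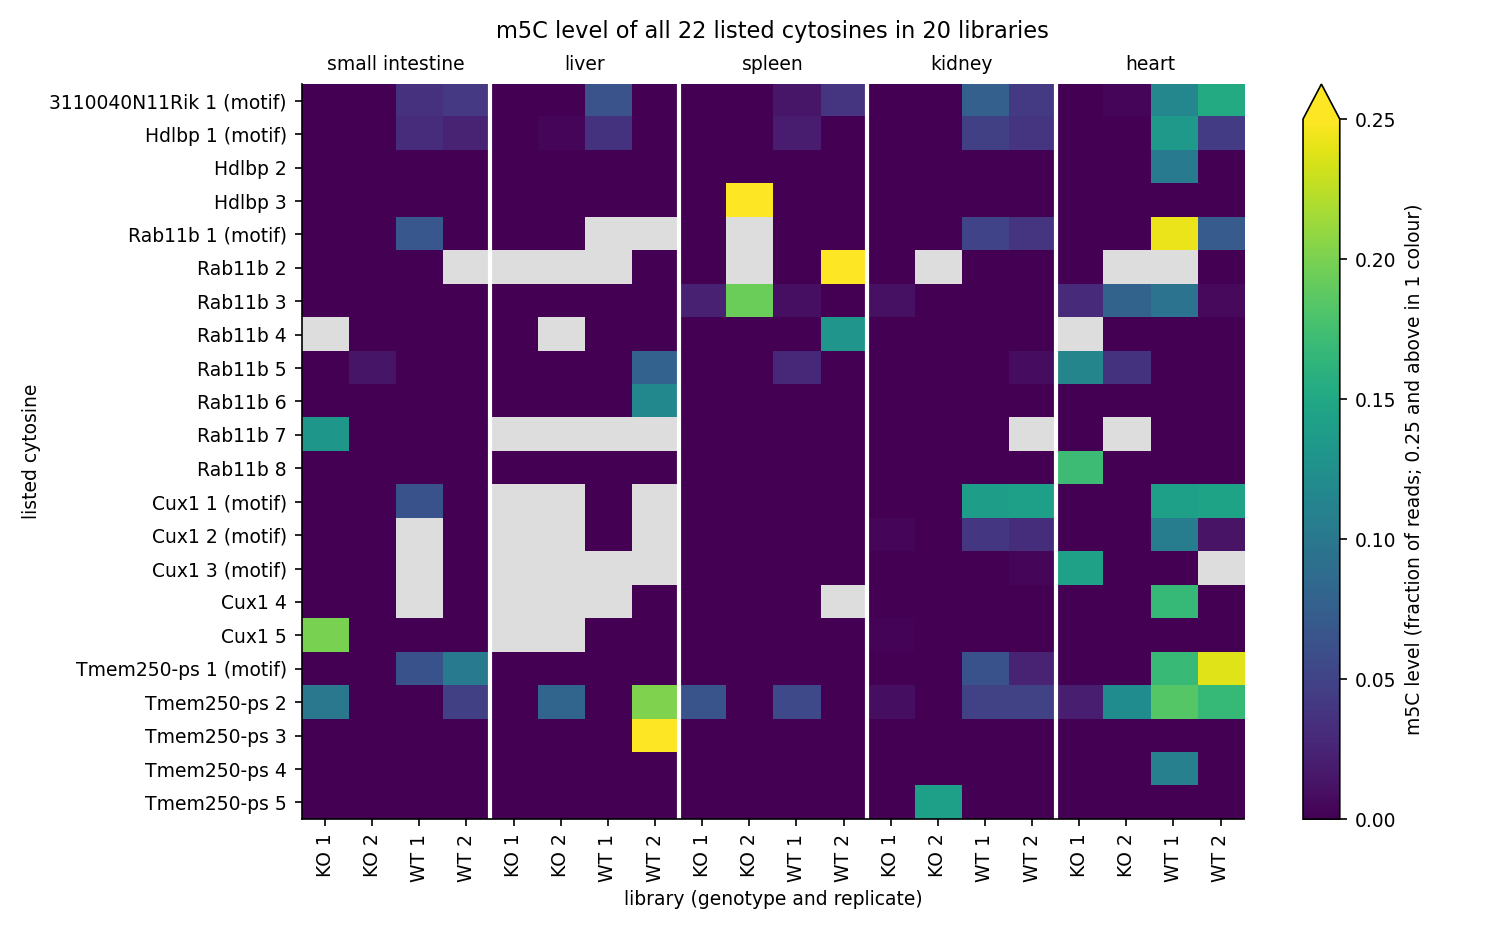
m5C level (colour scale, fraction of reads) of all 22 listed cytosines (rows, numbered within each gene, "motif" marking CTCCA) in the 20 libraries (columns, KO left of WT within each tissue); grey cells have no value. The first motif row of each gene carries signal in WT columns of several tissues, whereas most other rows have 1 bright cell, in KO as often as in WT.

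The other cytosines of the same 5 mRNAs are described next. Of the 15 without CTCCA, 14 had been passed in 1 library only, as had 97.1% of all listed cytosines. That library was 7 times a KO and 7 times a WT library. All 14 of these passes fell in 7 of the 8 libraries that had passed 2577 or more cytosines, and the part of those libraries in the calls was not tested. Pooled, these 15 cytosines had 150 unconverted reads of 14945 in KO (1.0%) and 187 of 11521 in WT (1.62%). All 11 passes of the motif cytosines were in WT, a direction set by the choice of genes. Of these, 3 were in libraries with few passed cytosines, namely Cux1 in both kidney libraries and Tmem250-ps in the second small intestine library. The others were in libraries with many. The motif cytosines of Hdlbp and Rab11b had also been passed in 1 library only.

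Hdlbp and Rab11b show the pattern of such single-library cytosines. The coding cytosine of Hdlbp at chr1:93430165 had 23 unconverted reads of 57 in the second KO spleen library and none in the other 19 libraries. Its coding cytosine at chr1:93431084 had 14 of 136 in the first WT heart library and none elsewhere. Rab11b at chr17:33749906, in codon 38, had 14 of 120 in the second WT liver library and none elsewhere. A pair of 3′ UTR cytosines of Rab11b had signal in more libraries, in both genotypes. That at chr17:33747212 had unconverted reads in 5 KO and 3 WT libraries, the most in the second KO spleen library (25 of 129), with heart levels of 0.0299 and 0.08 in KO, against 0.0949 and 0.00595 in WT. That at chr17:33746941 had 1 to 5 unconverted reads in 3 KO and 3 WT libraries. Each was higher in both KO than in both WT libraries of 1 tissue. At chr17:33747212 this was spleen, with levels of 0.0231 and 0.194 in KO, against 0.0106 and 0 in WT, while in heart the groups overlapped. At chr17:33746941 it was heart, with 5 of 44 and 2 of 54 in KO, against 0 of 18 and 0 of 34 in WT. Both met the criteria in KO there, and each has 3 other genomic copies.

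The most direct comparison lies within Tmem250-ps, where a second cytosine without CTCCA was also methylated in both genotypes. It is shown with the motif cytosine because the 2 lie 8 bases apart in the same transcript; capitals mark CTCCA and the second cytosine, on the mm10 minus strand.
Tmem250-ps, chr2:26137706-26137734: ggcttgaaCTCCAgagCagggggctggtc
The second cytosine is followed by AGGGG, a G-rich context. It had unconverted reads in 6 of 10 KO libraries (31 of 968 reads, 3.2%, 2.19% to 4.52%) and in 7 of 10 WT libraries (86 of 845 reads, 10.2%, 8.22% to 12.4%). The motif cytosine had them in 0 of 10 KO libraries (0 of 1189 reads, which allows up to 0.252%) and in 6 of 10 WT libraries (93 of 953, 9.76%). In heart the second cytosine stood at 2 of 97 and 14 of 115 in KO, against 18 of 98 and 37 of 222 in WT, so both WT libraries were higher but KO was not at 0. In small intestine it was 5 of 50 and 0 of 59 in KO, against 0 of 63 and 2 of 42 in WT, and in liver 0 of 32 and 3 of 37 in KO, against 0 of 62 and 17 of 84 in WT; the groups overlapped in both tissues. They also overlapped in spleen, with 3 of 46 and 0 of 31 in KO, against 1 of 18 and 0 of 31 in WT, where the mean was 0.0326 in KO and 0.0278 in WT. In kidney it was 4 of 441 and 0 of 60 in KO, against levels of 0.0495 and 0.0484 in WT, with no overlap.

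**Figure D3:**
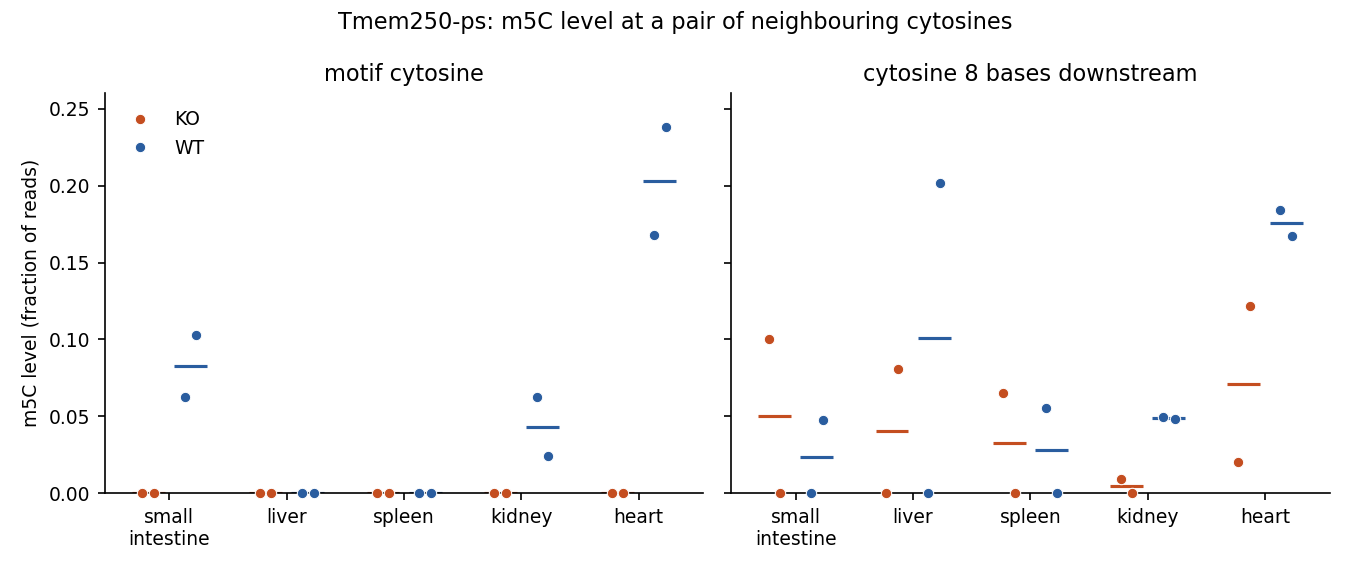
m5C level (fraction of reads, vertical axis) of the CTCCA cytosine of Tmem250-ps (left) and of the cytosine 8 bases downstream (right) in each tissue, 1 point per library, KO left of WT, lines at group means. KO is at 0 in all 10 libraries on the left and above 0 in 6 of 10 on the right.

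Cux1 has 2 further cytosines with CTCCA, shown because one shared the WT pattern and the other did not (mm10 minus strand, CTCCA in capitals).
Cux1 exon 11, chr5:136326828-136326852: tgtgcagcgaCTCCAggccagcctc
Cux1 exon 7, chr5:136363263-136363287: tgagcacaaaCTCCAgactctgcaa
The exon 11 cytosine had 1 unconverted read of 891 in KO (0.112%) and 25 of 773 in WT (3.23%). In kidney it had 1 of 326 and 0 of 153 in KO, against 2 of 51 and 12 of 363 in WT, and in heart 0 of 121 and 0 of 40 in KO, against 10 of 95 and 1 of 75 in WT. Both WT libraries were above both KO libraries in these 2 tissues, but the second WT heart library had only 1 unconverted read, so the criteria were not met there although the mean level was 0.0593. Its WT kidney level, 0.0361 ± 0.00435, was below the 0.141 of the exon 21 cytosine in the same libraries. The exon 7 cytosine went the other way, with 8 of 56 in the first KO heart library as its main signal, 8 of 622 over all KO libraries and 1 of 465 in WT.

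Predicted RNA structure, a measure that the choice of genes did not use, set the motif cytosines beside other sites. In a spliced window of 41 bases centred on the cytosine, the predicted probability of being unpaired was 0.99 for 3110040N11Rik, 0.956 for Hdlbp, 0.994 for Rab11b, 0.996 for Cux1 and 1.0 for Tmem250-ps. CTCCA cytosines of other genes that met the criteria in WT had a median of 0.992 (n = 33), and cytosines without the motif had a median of 0.551, with quartiles of 0.066 and 0.948 (n = 673). The exon 11 cytosine of Cux1 was at 0.954, and that of exon 7, without WT signal, at 0.07. The second cytosine of Tmem250-ps, methylated in both genotypes, was at 0.108. The 15 cytosines of the 5 genes without CTCCA ran from 0.009 to 0.989, and some that did not meet the criteria in WT were as open as the motif cytosines, such as Rab11b at chr17:33746994 (0.989) and chr17:33746941 (0.964), or nearly so, such as Cux1 at chr5:136326776 (0.916). These probabilities describe isolated windows and were not measured in cells.

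**Figure D4:**
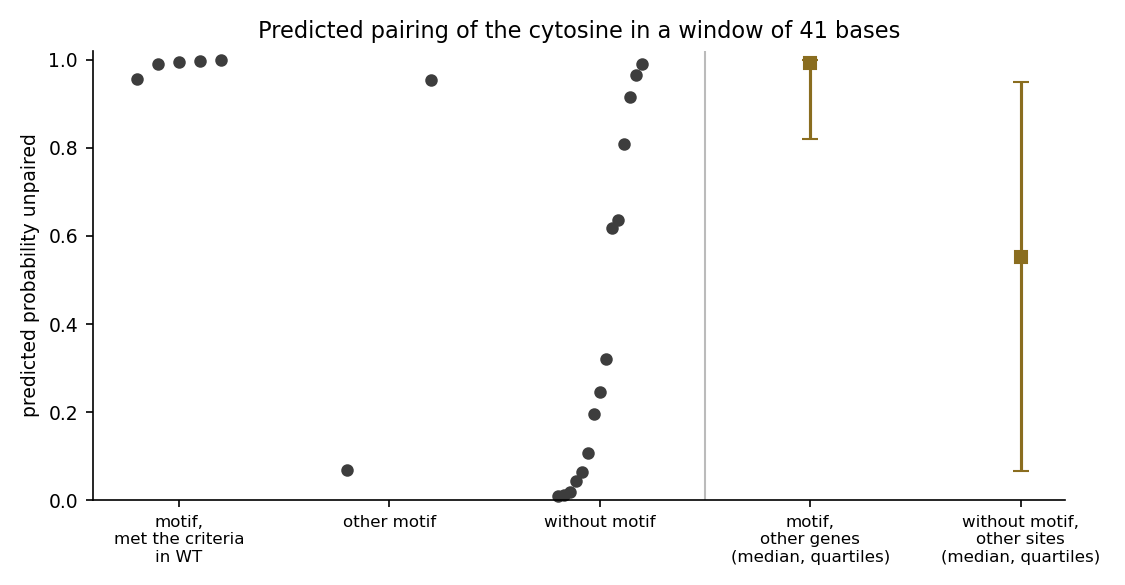
Predicted probability that the cytosine is unpaired (vertical axis, no unit) for the listed cytosines of the 5 genes by class (points; "motif" is CTCCA) and, right of the line, the median with quartiles of all other cytosines that met the criteria in WT. The 5 motif cytosines that met the criteria lie between 0.956 and 1.0.

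Among WT tissues, heart had the highest mean level for all 5 motif cytosines, though WT heart values had entered the choice of genes. Heart was also higher at most cytosines of other genes that met the criteria in either WT tissue compared. Without CTCCA, this held for 91.9% of 308 against small intestine and 80.9% of 267 against liver. Against spleen and kidney it held for 91.1% of 303 and 93.1% of 335. With CTCCA, it held in the same order for 8 of 9, 7 of 9, 9 of 9 and 7 of 10. For 3110040N11Rik the order was heart (0.135), kidney (0.0595), small intestine (0.0386), liver (0.0319) and spleen (0.0261); heart stood clear of the other 4 tissues and kidney of small intestine and spleen, while the first liver library, at 0.0637, lay within the kidney range, liver spanned small intestine and spleen, and small intestine overlapped spleen. For Hdlbp it was heart (0.0888), kidney (0.0427), small intestine (0.0284), liver (0.0182) and spleen (0.0101), and the second heart library, at 0.0434, lay within the kidney range, as small intestine lay within that of liver and liver shared the range of spleen. Heart and kidney had the highest means in both genes. For Tmem250-ps the order was heart (0.203), small intestine (0.0825) and kidney (0.0432), with liver and spleen at 0; heart stood clear of small intestine, which met kidney at 0.0625. For Rab11b it was heart (0.157), kidney (0.0436), small intestine (0.0341) and spleen at 0, and kidney lay within the small intestine range. For Cux1 heart (0.143) and kidney (0.141) were followed by small intestine (0.0312), with liver and spleen at 0. The F test over the 10 WT libraries (edgeR) called 0 of the 3 motif cytosines that could be tested, with adjusted p = 0.0534 for Tmem250-ps, 0.147 for Hdlbp and 0.306 for 3110040N11Rik, where 43.3% of all 208 tested cytosines were called. At an unadjusted p under 0.05 it took 1 of the 3, Tmem250-ps, beside 113 of all 208. The limma fit also called Tmem250-ps (adjusted p = 0.0179), beside 81 of all 208. Since WT heart values entered the choice of genes, these results are given for the record only. Cux1 and Rab11b had under 20 reads, or no value, in some WT libraries and were not tested.

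Other measures of the WT heart libraries were high too. At cytosines that the authors had not passed, 0.444% and 0.747% of reads were unconverted in WT heart, against 0.365% and 0.398% in KO heart and 0.217% to 0.431% in the other tissues, and the part of this in the heart levels was not tested. Both WT heart libraries were also among the 8 with the most passed cytosines, 3271 and 2960. KO heart libraries had 3995 and 333, and the motif cytosines there had 1 unconverted read in all.

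Coverage, which the choice used only as presence in several tissues, was compared between genotypes because it follows the amount of mRNA over the cytosine. The motif cytosines of 3110040N11Rik, Hdlbp and Tmem250-ps had a value in all 20 libraries, as did 12.4% of listed cytosines, and those of Cux1 and Rab11b in 17. In these bulk tissues fewer cells of a type and less RNA per cell cannot be told apart. Of 87 pairs of a listed cytosine of the 5 genes and a tissue, edgeR called 0 different between KO and WT, with a lowest adjusted p of 0.394. The share called among all cytosines was 0% in small intestine, liver, spleen and kidney and 0.024% in heart, and over all tissues edgeR called 3 of 59997. At an unadjusted p under 0.05, 5 of the 87 passed, beside 3666 of all 59997 pairs. DESeq2 called 1 of the 87, Hdlbp at chr1:93430165 in small intestine (higher in KO, adjusted p = 0.0239), beside 726 of all 59997. Both counts of the 5 genes were near the share over all pairs.

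At the motif cytosines themselves the log2 difference in coverage, KO over WT, ranged widely around 0. Coverage is given here as RPM, reads at the cytosine per 1000000 reads over all listed cytosines of the library. For 3110040N11Rik, coverage was 142 and 178 RPM in KO heart, against 299 and 204 in WT heart, and 520 and 110 in KO small intestine, against 359 and 167 in WT small intestine. For Hdlbp, vigilin, it was 379 and 455 RPM in KO small intestine, against 863 and 556 in WT, a log2 difference of -0.54 (adjusted p = 0.997). For Cux1 in heart, the libraries did not overlap, with 30.8 and 17.1 RPM in KO against 87.2 and 66.2 RPM in WT (log2 difference -1.64, adjusted p = 0.662). In kidney Cux1 had 44.0 and 52.5 RPM in KO, against 45.7 and 54.4 RPM in WT. For Tmem250-ps the log2 difference lay between -0.20 in liver and 0.45 in spleen. With 2 libraries a group, a p above the threshold does not show that coverage was equal.

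**Figure D5:**
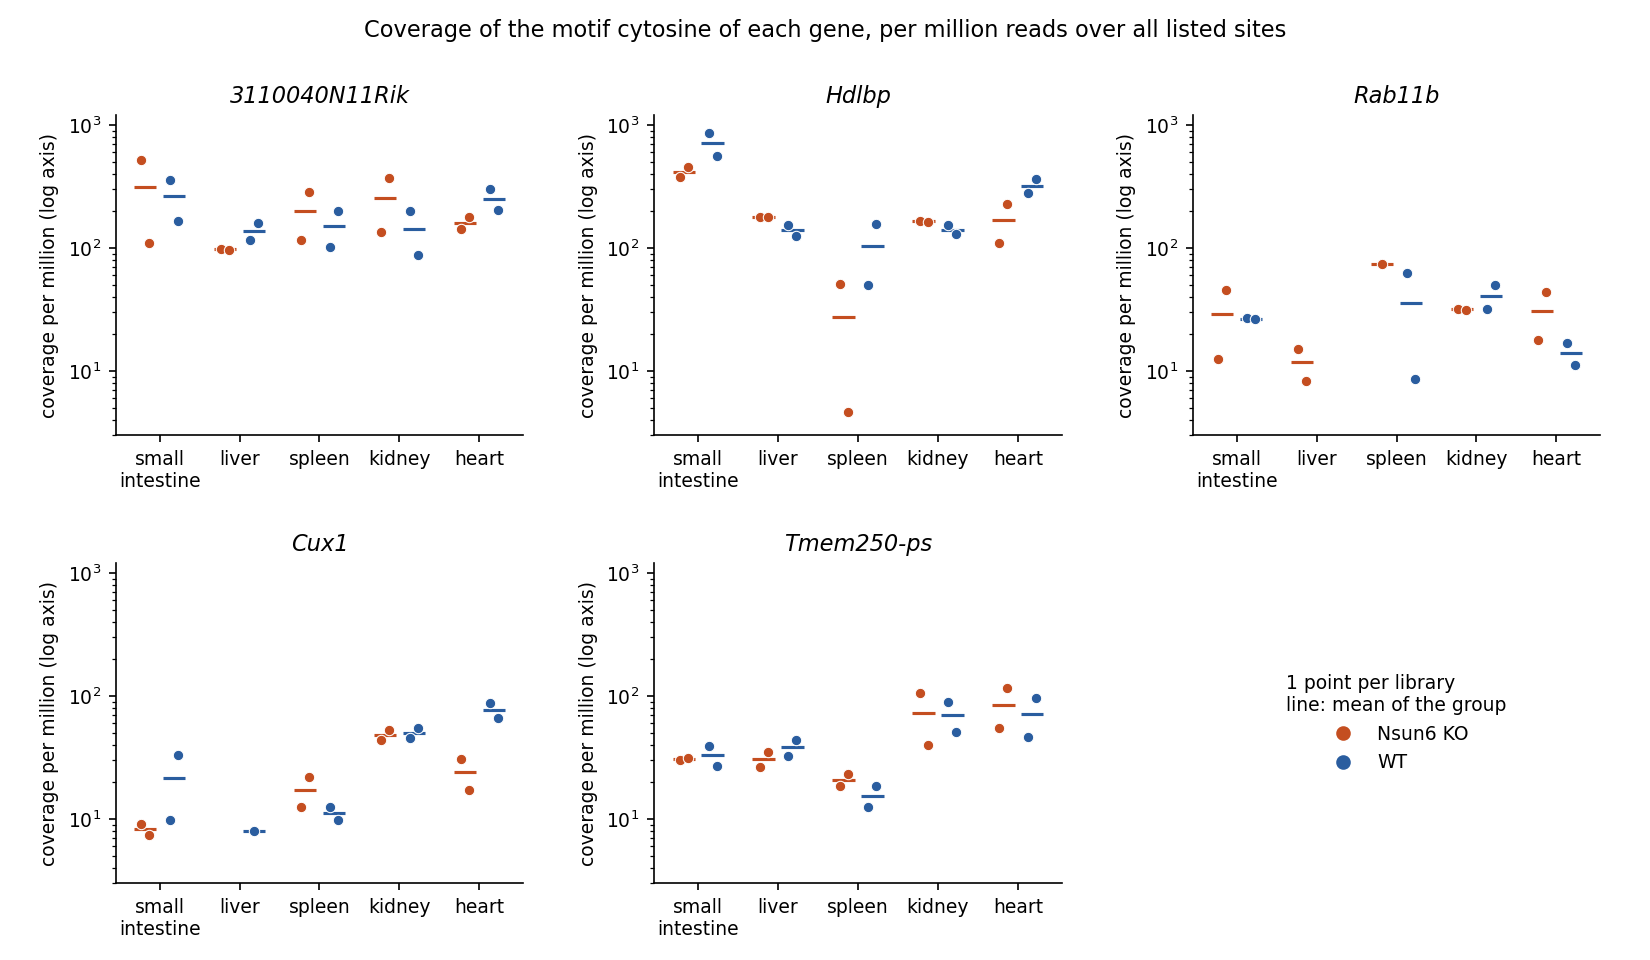
Coverage of the motif cytosine of each gene in RPM (reads per 1000000 reads over all listed cytosines; vertical axis, log scale) in each tissue, 1 point per library, KO left of WT, lines at group means. KO and WT points intermingle for Tmem250-ps and 3110040N11Rik in most tissues, and the 2 KO heart points of Cux1 (30.8 and 17.1) lie below the WT points (87.2 and 66.2). In heart the KO points of 3110040N11Rik and Hdlbp also lie below WT, and those of Rab11b above WT.

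The families of these genes gave little further signal. Of 40 genes of the Rab11 recycling endosome, 34 had listed cytosines, none with CTCCA, and 0 of 4 tested pairs of a cytosine and a tissue changed. Among them Rab11fip1, which encodes a Rab11 effector, stood at 0.365 ± 0.143 in KO small intestine and 0.285 ± 0.0559 in WT (adjusted p = 0.861). Of 36 genes for KH domain RNA-binding proteins, 25 had 57 listed cytosines, and 1 of 2 tested pairs fell, which is Hdlbp itself; the other, Bicc1 in kidney, stood at 0.0903 ± 0.0866 in KO and 0.0868 ± 0.00584 in WT (adjusted p = 0.926). Of 24 genes of CUT homeobox factors and Golgi golgins and tethers, the relatives of the Cux1 products, 21 had 88 listed cytosines, none of which met the criteria in WT. Of 17 genes for m5C writers, erasers and readers, 12 had 33 listed cytosines and none could be tested; Ybx2, encoding a Y-box protein, had WT heart levels of 0.333 and 0.133. A list of 13 other CTCCA genes, picked from an earlier account of these same libraries and so not independent, had 11 of 23 tested pairs fall, with Igfbp6 in heart at 0.00476 ± 0.00673 in KO and 0.476 ± 0.142 in WT. Over all 1165 tested pairs, 15 fell and 7 rose, and the median log2 difference was 0.187, against -6.37 over the 11 tested pairs of the 5 genes, whose choice fixed that direction.

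Cytosines of other genes whose levels ran most like those of the 5 genes over the 20 libraries were partly CTCCA cytosines. Over the libraries with at least 20 reads for both, the closest to Rab11b and to Hdlbp was the CTCCA cytosine of Phyh, a peroxisomal fatty acid hydroxylase (Pearson's r = 0.96 over 16 libraries and 0.90 over 19), and the closest to Tmem250-ps and to 3110040N11Rik was that of Atpaf1, an assembly factor of the mitochondrial ATP synthase (0.92 and 0.89 over 17 libraries). Next after these came cytosines without CTCCA, Ctbp1 for Rab11b (0.95), Sf3b1 for Hdlbp (0.89) and Gnptg for Tmem250-ps (0.90) and 3110040N11Rik (0.87). The second Tmem250-ps cytosine, which had the gene's highest mean WT level, was closest to a cytosine of Chmp1a without CTCCA (0.90 over 19). For Cux1 no cytosine shared the 16 libraries required. These correlations are descriptions; the values compared come from the same libraries and so share tissue and depth.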

How the data were processed

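The authors captured mRNA, treated it with bisulfite, made stranded libraries and called m5C sites in each library with an RNA m5C pipeline; its aligner and version: not given in the sources used here. In addition, the submitters' processing notes name the build mm10. Per the file headers the deposited table holds, for each site and library, the coverage and the unconverted C as counts of reads, the level as a fraction, and a mark (other) of whether the authors passed the site. The fraction equals the ratio of the deposited counts. Further deposited columns (p-values, signal fractions and nonconversion rates), 60 in all, were not used. The lowest coverage listed was 10, and a missing value means fewer reads.

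The genes, gene lists and tests were chosen with earlier results of these data known. The text covers every listed site of the 5 genes; other named genes are up to 3 per list with the highest WT level, and the 3 sites with the highest Pearson correlation of level over at least 16 libraries with 20 reads. The gene's leading site was that with the highest mean WT level, which for Tmem250-ps is the second cytosine; its CTCCA cytosine was added to the likeness search after its values were seen.

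Sites entering a level test had at least 20 reads in all libraries compared and met the criteria (2 unconverted reads in both libraries, mean level 0.05) in KO or WT. Both counts, unconverted and converted, entered edgeR 4.0.16 (glmQLFit, glmQLFTest, an intercept per library; R 4.3.3), two-sided, with Benjamini-Hochberg adjustment at 0.05. Coverage with a mean of at least 20 was tested with edgeR after TMM. Alternatives were limma 3.58.1 (logit, 0.5 added to both counts), DESeq2 1.42.0, coverage minimums of 10 and 50, the authors' passed sites, total coverage, no coverage filter, WT tissues without heart, a replicate block and leaving out each library. The fits were checked on simulated counts. Replicate numbers did not pair libraries: the correlation of their deviations ran from -0.145 (heart) to 0.0753 (liver). Sequences came from the mm10 RefSeq genome, copies from blastn 2.17.0 and folding from ViennaRNA 2.7.2. Intervals are exact (Clopper-Pearson, 95%) and where no read was unconverted the limit is 3 reads over the coverage.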

Additional observations from a re-analysis of the deposited data

Results flagged for a closer look

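The coverage of the Hdlbp motif cytosine moved in opposite directions between tissues in every library of those tissues; the difference between tissues was not tested, and edgeR called no coverage difference at this cytosine. In RPM, it was higher in both KO than in both WT libraries of liver, by a mean of 38.5, and of kidney, by 23.1. It was lower in both KO than in both WT libraries of small intestine, with a KO minus WT difference of -292, and of heart, with -152.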

How the results depend on the processing

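Of the listed cytosines of the 5 genes, 3 were called lower in KO by edgeR. The genes were selected on this difference, so the results below show only how the calls depend on the settings. limma on logit levels called 0 (adjusted p = 0.125 for Hdlbp and 3110040N11Rik and 0.105 for Tmem250-ps in heart), beside 4 of all 1165 pairs. Over the sites the authors passed, edgeR called 0 of 21, beside 10 of all 11117. Leaving out each library gave 2 to 6, with 14 of 20 at 3: 6 without the first and 4 without the second WT liver library, 5 without the first KO kidney library, and 2 without the first KO, the second KO or the first WT heart library. Hdlbp was not called without the first WT heart library (KO minus WT -0.0434, against -0.0888 with all), and Tmem250-ps was not called without the second WT heart library or either KO heart library. With the replicate block 2 were called, Tmem250-ps passing no longer (adjusted p = 0.0571), and with the crossed pairing in heart, added after seeing the data, 3. Between WT tissues edgeR called 0, while limma, a minimum of 10 reads and the replicate block called 1 each, Tmem250-ps. Each fit between WT tissues that left out 1 library had 1 library left in a tissue. The spread within that tissue could not be estimated, so no call is read from these fits. Without heart 0 of 106 sites were called. For coverage edgeR called 0 of 87, beside 3 of all 59997, and DESeq2 1 of 87, beside 726. Leaving out 1 library kept the count in 17 of 20 fits. The fits that differed were those without either WT liver library or the first KO small intestine library. They had 1 library left in a group and called more of all cytosines as well. The replicate block changed no coverage call. Without the first WT liver library edgeR called 1041 of 2147 pairs of a site and a tissue, and without the first KO kidney library 1755 of 2788; with 1 library left in a group, the lone library is assumed to vary like the others. Of the recomputed KO minus WT levels, 5 turned sign, 4 of them at the second Tmem250-ps cytosine and 1 at Hdlbp in liver (0.00194 without the first WT liver library, against -0.0162). Another 4, all at motif cytosines, went to 0 without the first WT library of the tissue. These were Rab11b and Cux1 in small intestine, Hdlbp in spleen and 3110040N11Rik in liver. Depth limits Rab11b and Cux1 in liver and spleen, and 2 libraries a group limit every test.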
